A study of Arabidopsis thaliana with 60 samples.

Results

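The chloroplast of Arabidopsis thaliana keeps a small genome of its own, and 69 probe sets of the ATH1 array named exactly 1 gene and that gene lay in the plastid genome. They were taken from 22746 probe sets other than controls, of which 13513 named a single gene, and no measured value was used to choose them. By product, 15 are genes of photosystem II, grouped by name and including psbN, whose product helps in its assembly. Another 5 encode subunits of photosystem I, 6 of the cytochrome b6f complex and 6 of the ATP synthase. The NADH dehydrogenase-like (NDH) complex has 10. A further 4 encode subunits of the plastid RNA polymerase, 7 proteins of the large and 8 of the small plastid ribosomal subunit, and 1 (rbcL) the large subunit of Rubisco. The remaining 7 are matK, accD, clpP, ycf3, ycf4, cemA and ccsA.

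Plastid genes are transcribed by a bacterial-type polymerase, whose core subunits are the products of rpoA, rpoB, rpoC1 and rpoC2 and whose sigma factors come from the nucleus, and by a phage-type polymerase encoded in the nucleus. Most of them are transcribed together with their neighbours as long precursors, which nucleus-encoded proteins cut, splice, edit and protect from decay. The complexes they build are mosaics, so each photosystem, the ATP synthase and Rubisco also need subunits made in the cytosol and imported. Plastid messages carry no stable poly(A) tail, and in plastids added A-rich tails mark RNA for decay, whereas the labelling kit named in the labels starts from an oligo(dT) primer. The signals below are therefore those of the RNA that this priming captured, and how far they follow the total plastid RNA was not tested.

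The RNA came from whole 7-day seedlings of the Col-0 ecotype, grown at 23 degrees, extracted by a guanidine hydrochloride method and hybridised in 60 arrays, 2 for each of 30 groups. Series F1 held seedlings treated for 3 h with mock solution or with 1 of 18 treatments, series F2 held a 12 h mock and 7 treatments, and series G a second 3 h mock and 2 treatments. In F1 the compounds, at 10 µM unless said otherwise, were the triazoles propiconazole, uniconazole and paclobutrazol, prohexadione and daminozide (these last 4 known as growth retardants that block gibberellin synthesis), 2,4,6T and the antiauxin PCIB, the auxin transport inhibitors TIBA and NPA, the brassinosteroid synthesis inhibitors Brz220 and Brz91, silver nitrate and AVG, which block ethylene perception and synthesis, cycloheximide (CHX), which stops translation on cytosolic ribosomes but not on those of the plastid, the proteasome inhibitor MG132, PNO8 at 1 µM, known as a photosynthesis inhibitor, ibuprofen and salicylic acid. F2 repeated propiconazole, uniconazole, paclobutrazol, prohexadione, Brz220, Brz91 and PNO8 at the same doses, and G held Brz220 at 3 µM and PNO8 at 10 µM. The labels name no promoter, transgene or mutant, so all groups share the wild-type background, and no label tells if a group's 2 arrays hold RNA of separate cultures. The p-values therefore measure only the spread between arrays, which may be technical. In whole seedlings, fewer chloroplasts and less RNA in each of them cannot be told apart.

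Signals are the deposited MAS5 intensities after every array was brought to a common trimmed mean, and differences are log2 differences of signal plus a pseudocount of 126. All 69 plastid probe sets passed a filter that asked for 2 or more arrays with a signal over the 40th percentile of that array. With them 17301 probe sets passed and were tested together with limma, at an adjusted p threshold of 0.05. Plastid probe sets were bright: 43 of 69 had a mean signal over 10000 and the means ran from 162 to 29582, on arrays whose brightest probe set read between 26995 and 60266. The 3′ to 5′ signal ratio of the actin control, a sign of RNA quality, ran from 1.22 to 1.89 over the 60 arrays. The lowest, 1.22, was a CHX array, the other CHX array stood at 1.32, and the F1 mock arrays at 1.89 and 1.43. The same ratio of the GAPDH control went the other way, at 1.11 and 1.13 on the CHX arrays and 0.87 and 0.95 on the F1 mock arrays. Over all arrays it ran from 0.82 to 1.26. Of the tissue markers, the root genes PYK10 and EXPA7 were measured, at 21313 to 49182 and 272 to 2415, and no shoot, seed or floral marker of the lists had a probe set of its own.

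By number of calls and by size of the median difference, the largest response of plastid genes was to cycloheximide. Set against the median of all probe sets, the plastid median stood at -0.29 with CHX and at 0.33 with PNO8 at 10 µM. At 3 h, 31 of the 69 were lower than in the F1 mock and 0 were higher, a share of 44.9% against 33.6% of all probe sets called lower. The median plastid gene differed by -0.51, with quartiles of -0.87 and -0.21, against a median of -0.21 over all probe sets, and 11 of 69 had a positive difference. In 38 of 69, both CHX arrays lay below both mock arrays, against 44.8% of all probe sets. The counts rest on single arrays: without the second CHX array, 10 genes were called lower, 14.5% against 30.2% of all probe sets, and without the first mock array 19, 27.5% against 28.4%, so that in both cases the share no longer exceeded that of all probe sets. Calls were made for 6 of 7 large ribosomal proteins, 3 of 4 polymerase subunits and rbcL, and for no gene of the ATP synthase or of the cytochrome b6f complex. Counts by complex, here and below, are to be read against the 33.6% of all probe sets called lower. The differences between complexes were not tested, and the genes without a call include wide-ranging ones such as petG at -0.90 ± 0.44.

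**Figure D1:**
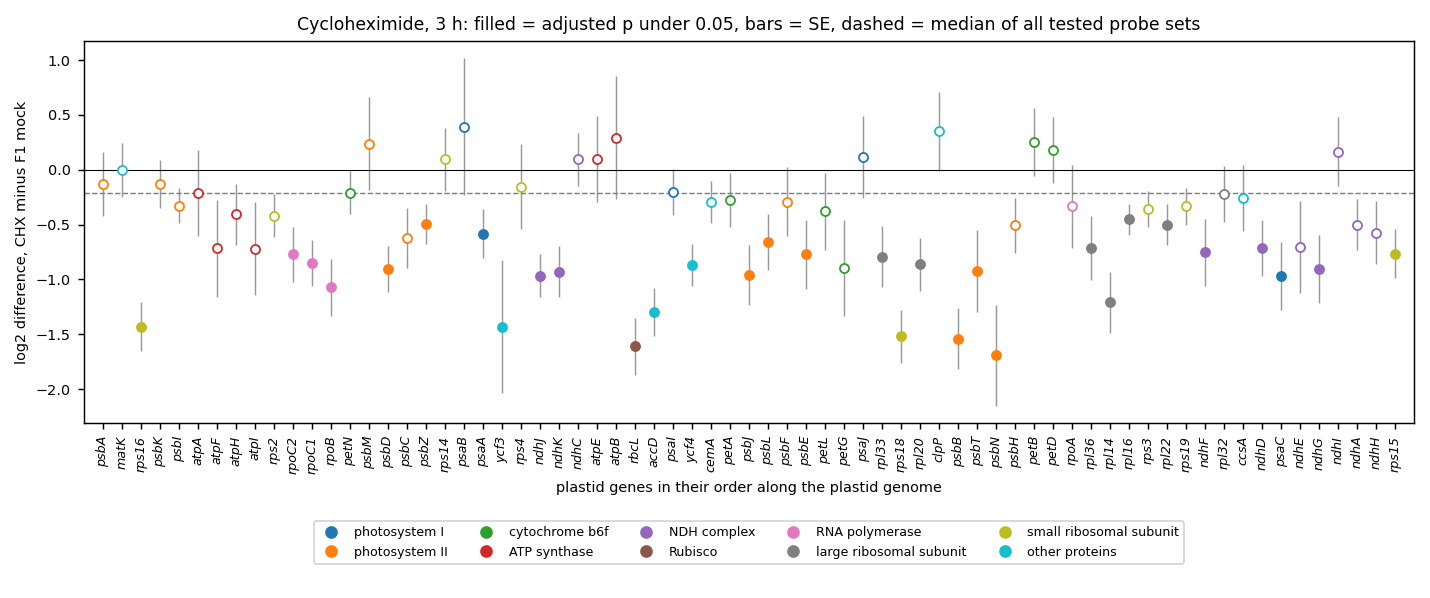
Log2 difference (CHX minus F1 mock, vertical axis) of each of the 69 plastid genes, placed in their order along the plastid genome, with colours for complexes and bars for the standard error. The 31 filled points are those that passed the test and all lie below 0, while open points scatter between -0.90 (petG) and 0.39 (psaB).

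For rbcL (locus ArthCp030), which encodes the catalytic subunit of carbon fixation, the mock arrays read 7116 and 6230 and the CHX arrays 2474 and 1774. Both CHX arrays lay below both mock arrays, and they held the lowest rbcL signals of all 60 arrays. The difference was -1.61 ± 0.26 (SE), a fold of 3.05, with a limma adjusted p of 1.27e-06. In the 25 comparisons other than CHX and PNO8 at 10 µM, the rbcL difference ran from -0.56 with PCIB to 0.44 with AVG, and none of them passed the test.

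Among the polymerase genes, rpoB, rpoC1 and rpoC2 lie side by side in that order of transcription and all fell. The signal of rpoB was 1159 and 1136 in the mock and 566 and 405 with CHX, a difference of -1.07 ± 0.26 (limma adjusted p = 0.000588). That of rpoC1 was 13544 and 10511 against 7069 and 6080, a difference of -0.85 ± 0.21 (limma adjusted p = 0.000675). For both genes the groups did not overlap and the CHX arrays were close together. The third, rpoC2, read 6587 and 4289 against 3981 and 2357, a difference of -0.77 ± 0.25 (limma adjusted p = 0.0096). The fourth subunit gene, rpoA, lies apart, in a cluster of ribosomal protein genes. Its mock arrays, 12772 and 6984, enclosed 1 of the CHX arrays, 6730 and 8296, and its difference was -0.33 ± 0.38.

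Of the 7 genes for proteins of the large ribosomal subunit, 6 fell. rpl14 differed by -1.21, rpl20 by -0.86, rpl33 by -0.79, rpl36 by -0.71, rpl22 by -0.50 and rpl16 by -0.45, and rpl32, at -0.22, did not pass. The arrays of rpl14 and rpl36 disagreed: rpl14 read 6879 and 2275 with CHX against 9000 and 9701, and rpl36 read 18632 and 8328 against 13834 and 30330, where the groups overlapped. In the small subunit, 3 of 8 fell. rps18 went from 7690 and 6056 in the mock to 2434 and 2177 with CHX (difference -1.52, limma adjusted p = 1.31e-06), and rps16 from 1803 and 1654 to 617 and 509 (difference -1.43, limma adjusted p = 7.28e-07, the lowest of any plastid gene). In both genes the CHX arrays were close together and far below the mock. The third that fell was rps15, at -0.77. The other members of the small subunit, rps2, rps3, rps19, rps4 and rps14, had differences from -0.42 to 0.09.

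Photosystem II, the group with the most members, had the most genes that fell, 8 of 15, and the widest range. A larger share fell among the large ribosomal proteins and the polymerase genes. psbB, which encodes the core antenna protein CP47, read 24404 and 17531 in the mock and 10436 and 4711 with CHX, a difference of -1.54 ± 0.28 (limma adjusted p = 1.09e-05). psbN, whose product helps assemble the photosystem, read 3172 and 2335 against 1309 and 415, and its difference of -1.69 ± 0.46 was the lowest of all plastid genes (limma adjusted p = 0.00194). psbD, for the reaction-centre protein D2, fell by 0.90 on the log2 scale, and psbE, for a subunit of cytochrome b559, by 0.77. The small subunits psbJ, psbT, psbL and psbZ fell by 0.96, 0.92, 0.66 and 0.49. The other 7 did not pass. They include psbA, for the rapidly turned over D1 protein, at 26027 and 24060 in the mock and 26907 and 19385 with CHX (difference -0.13 ± 0.29), and psbC, for the antenna protein CP43, at -0.62 (limma adjusted p = 0.0545). psbK, psbI, psbM, psbF and psbH ran from -0.51 to 0.24.

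In photosystem I, psaC, which encodes the protein that carries the terminal iron-sulfur clusters, fell by 0.97, and psaA, a reaction-centre core subunit, by 0.58. The partner of psaA, psaB, read 15429 and 28812 in the mock and 22906 and 33564 with CHX, so its groups overlapped. Its difference was 0.39 ± 0.62, the highest of the plastid genes but smaller than its error. The small subunits psaI and psaJ stood at -0.20 and 0.11.

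Of the NDH complex, which returns electrons from the stroma to the plastoquinone pool, 5 of 10 genes fell. ndhJ read 6063 and 3913 in the mock and 3136 and 1878 with CHX, and ndhK 5015 and 3562 against 2533 and 1842. The differences were -0.97 ± 0.20 and -0.93 ± 0.23, and the groups of both genes lay clear of each other. ndhG, ndhF and ndhD fell by 0.91, 0.75 and 0.71, while ndhE, ndhH, ndhA, ndhC and ndhI ran from -0.71 to 0.16 and did not pass. ndhF, the dimmest plastid probe set, read 399 and 135 in the mock and 133 and 60.3 with CHX, so that its difference is understated by the pseudocount.

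The 6 ATP synthase genes ran from -0.72 (atpI and atpF) through -0.41 (atpH) and -0.21 (atpA) to 0.10 (atpE) and 0.29 (atpB), and none passed. Their arrays disagreed in part: atpF, for a stalk subunit, read 14030 and 12464 in the mock and 13210 and 4816 with CHX, so that 1 CHX array lay between the mock arrays. The cytochrome b6f genes ran from -0.90 (petG) through -0.38 (petL), -0.28 (petA, cytochrome f) and -0.21 (petN) to 0.18 (petD, subunit IV) and 0.25 (petB, cytochrome b6). petG had the lowest adjusted p of both groups, 0.0832.

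Of the 7 other proteins, accD, ycf3 and ycf4 fell. accD, which encodes the plastid subunit of the acetyl-CoA carboxylase that starts fatty acid synthesis, read 10399 and 8253 in the mock and 4180 and 3273 with CHX. Its difference was -1.30 ± 0.22 (limma adjusted p = 2.88e-06), and both CHX arrays lay below both mock arrays. The assembly factors of photosystem I, ycf3 and ycf4, differed by -1.43 ± 0.60 and -0.87 ± 0.19, the former only just past the threshold (limma adjusted p = 0.0444). matK, cemA, ccsA and clpP ran from -0.29 to 0.35.

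Neighbouring genes that are known to share transcripts did not always fall together, an observation made after the values were seen. In the cluster of psbB, psbT, psbH, petB and petD, the first and second fell, while psbH (-0.51), petB (0.25) and petD (0.18) did not pass. ndhJ and ndhK fell next to ndhC at 0.10, and psaA next to psaB. rbcL and accD, side by side on the genome, both fell. The differences between neighbours were not tested, and their probe sets differ in brightness.

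Brightness went with the CHX differences. Of the 35 members with a mean signal up to 15936, 20 fell and the median difference was -0.77. Of the 34 brighter ones, 11 fell and the median was -0.28. Over all probe sets, bright and dim together, 33.6% were called lower and the median was -0.21. The brighter plastid genes thus stood close to all probe sets, and the dimmer ones further below. Several genes that did not pass were among the brightest probe sets of their arrays, and how far signals near the top of the range can follow a change was not tested.

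**Figure D2:**
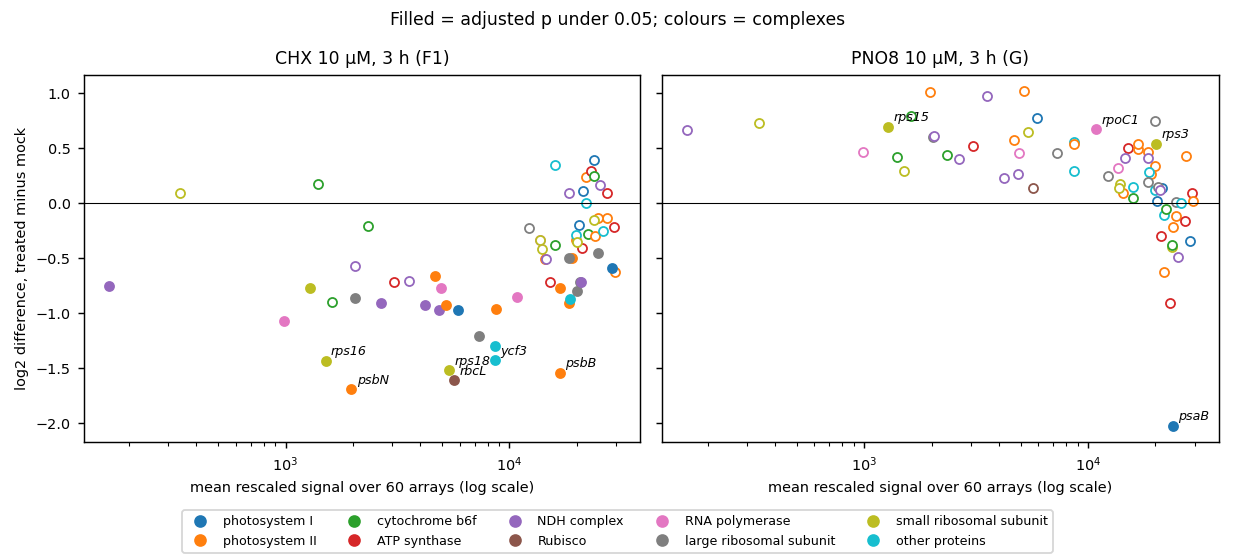
Mean rescaled signal of each plastid gene over the 60 arrays (horizontal, log scale) against its log2 difference from the mock (vertical) for CHX and for PNO8 at 10 µM, with filled points where the test was passed. With CHX the 35 dimmer genes have a median of -0.77 and the 34 brighter ones -0.28; with PNO8, psaB alone lies near -2.02, and the genes with negative differences all lie at the bright end.

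The 2 CHX arrays differed in how far the plastid genes stood below the mock. The median member differed by -0.35 between the first CHX and the first mock array and by -0.62 between the second ones. In both, 49 of 69 were negative, though the replicate numbers were not taken to pair the arrays. The median centred log2 signal of the 69 genes was -0.25 and -0.72 on the CHX arrays, the latter the lowest of the 60, with an MG132 array at -0.29 between them. Without the second CHX array, the median of the members, -0.28, was near that of all probe sets, -0.29, and without the first mock array it was -0.41 against -0.22. Without the first CHX array, 37 were called lower (53.6% against 27.2% of all probe sets), and without the second mock array 30 (43.5% against 28.9%). Without rescaling of the deposited intensities, 16 were called. With both 3 h mocks as the control, 42 were called lower and 2 higher, petD and rps14, both of which the G mock had below the F1 mock. The 9 genes called in each of these leave-outs and under each other setting tried were rbcL, accD, psbB, rps16, rps18, rpoB, rpoC1, ndhJ and ndhK, so the counts by complex above rest in part on single arrays while the calls of these 9 held without any 1 of them.

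Other genes of the same pathways, on lists that hold few measured members, moved as follows with CHX. Their shares called lower are to be read against the 33.6% of all probe sets, and nothing particular to a list is drawn from them. Of 11 mitochondrial genes, 3 fell and 0 rose (27.3%, median -0.47). The examples are ccb382, for a cytochrome c maturation protein, from 3857 and 4427 to 2078 and 2230 (difference -0.90), and nad4, for a subunit of respiratory complex I (difference -0.86). Of 9 nuclear photosynthesis genes, 2 fell (22.2%): LHCB4.2, which encodes a minor antenna protein of photosystem II, by 1.27, and PSBW, for a small subunit of that photosystem, by 0.49. Of 8 nuclear genes for plastid RNA processing, 3 fell (37.5%), CRR21 by 1.26 and OTP81 by 0.93, both RNA editing factors, and LPA66, also an editing factor, by 0.75. The phage-type polymerase gene AT5G15700, the single gene measured of 23 listed for plastid transcription, differed by -0.41 ± 0.44 and was not called.

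The treated arrays of series G stood apart in the other direction. With PNO8 at 10 µM for 3 h, 56 of 69 plastid genes had a positive difference, against 45.8% of all probe sets, and the median was 0.29 against -0.04. The test called 3 higher and 1 lower, where 6.25% of all probe sets were called higher and 5.99% lower. In 46 of 69, both treated arrays lay above both mock arrays (26.8% of all probe sets did) and in 9 below (34% of all probe sets). The 3 that rose encode 2 ribosomal proteins and a polymerase subunit. rps3 read 19731 and 19385 in the G mock and 27156 and 29978 with PNO8, a difference of 0.54 ± 0.16 (limma adjusted p = 0.0201). rpoC1 read 10262 and 9449 against 14943 and 16638, a difference of 0.67 ± 0.21 (limma adjusted p = 0.0263). rps15 read 1961 and 1816 against 2868 and 3439, a difference of 0.70 ± 0.22 (limma adjusted p = 0.0321). In each, the treated arrays lay clear of the mock arrays, but the calls of rpoC1 and rps15 were lost when any 1 of the 4 arrays was left out, and that of rps3 in 3 of the 4 leave-outs. rpoC1 and rps15 were also among the genes that fell with CHX.

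The gene that fell with PNO8 was psaB, from 14273 and 24791 to 9723 and 2084, a difference of -2.02 ± 0.62 (limma adjusted p = 0.0255). The 2 treated arrays differed from each other by more than 4-fold, and the lower one held the lowest psaB signal of all 60 arrays. Without that array the difference was -0.94 and was not called, and without the second mock array it was -1.63 and was not called. Its partner psaA stood at -0.34. Higher differences that missed the threshold were those of psbT (1.02, limma adjusted p = 0.0703), psbN (1.01) and ndhE (0.97), while atpB (-0.91), psbM (-0.63) and ndhI (-0.49) were lower. rbcL differed by 0.14 ± 0.26 and psbA, whose product carries the plastoquinone site that many photosystem II inhibitors occupy, by 0.43 ± 0.29. Leaving out 1 array at a time left 0 to 2 plastid genes called. With the 6 arrays of series G fitted alone, 27 were called higher and 4 lower. With both 3 h mocks as the control, 15 were called higher and 1 lower. The shares of all probe sets called under these settings were not computed, so nothing particular to plastid genes is drawn from these counts.

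Brz220 at 3 µM, compared with the same G mock arrays, gave a positive difference in 66 of 69 plastid genes, against 50.5% of all probe sets, with a median of 0.21 against 0.00. Both treated arrays lay above both mock arrays in 50 of 69, against 17.8% of all probe sets. None of the 69 passed the test, where 0.0347% of all probe sets did, and 4 were higher at an unadjusted p under 0.05 (1.51% of all probe sets): psbD, psbA, psbI and rps14, whose mock signals of 82.4 and 37.7 lie under the 20th percentile of their arrays. In psbA the mock read 11910 and 10356 and the treated arrays 15219 and 19743. The median centred log2 signal of the 69 genes was 0.10 and 0.14 on the G mock arrays, 0.28 and 0.40 with Brz220 and 0.38 and 0.42 with PNO8. These 4 treated arrays had the highest medians of the 60. Both comparisons rest on the same 2 mock arrays.

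In series F2, 1 plastid gene passed the test. petN (locus ArthCp015), which encodes a small subunit of the cytochrome b6f complex, read 1332 and 1787 in the 12 h mock and 2741 and 2722 with uniconazole, a difference of 0.77 ± 0.20 (limma adjusted p = 0.0436). The call covers 1 of 69, where 0.526% of all probe sets were called higher. The call was lost when any 1 of the 4 arrays was left out, with the differences between 0.58 and 0.97. The other treatments of F2 share these mock arrays, and their petN differences were 0.76 with Brz91, 0.62 with propiconazole, 0.51 with paclobutrazol, 0.49 with prohexadione, 0.48 with Brz220 and 0.36 with PNO8, none of them called. At 3 h, uniconazole gave 0.06 ± 0.20 for petN. The 12 h minus 3 h difference of 0.71 ± 0.28 did not pass the test (limma adjusted p = 0.559).

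With salicylic acid, psbB read 11284 and 10910, below both F1 mock arrays at 24404 and 17531. The difference was -0.89 ± 0.28 (limma adjusted p = 0.0372), 1 call in 69 where 3.65% of all probe sets were called lower. Without the first mock array it was -0.65 and not called, and leaving out either treated array also ended the call. Of the 8 measured nuclear genes for plastid RNA processing, the editing factors CRR21 and LPA66 are named for their rank in this comparison. They were lower with salicylic acid, by 0.96 and 0.83. The other genes of that list are not given here, so nothing is drawn about the list. The mock arrays of CRR21 read 1410 and 668, and CRR21 was also lower with PNO8 at 10 µM, by 0.89.

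In the other 23 comparisons with a mock, limma called 0 plastid genes, while the share of all probe sets called ran from 0% to 24.8%. It was 24.8% with silver nitrate and 11.9% with TIBA, and between 1.01% and 1.54% with MG132 (1.01%), ibuprofen (1.32%), 2,4,6T (1.5%) and PNO8 at 1 µM for 3 h (1.54%). It was 0.468% with Brz220 at 12 h, 0.347% with AVG, 0.289% with propiconazole at 12 h, 0.225% and 0.15% with Brz91 at 12 h and 3 h, 0.145% with NPA, 0.139% with PCIB and 0.104% with propiconazole at 3 h. In the others it was 0.0809% and 0.0462% with prohexadione at 3 h and 12 h, 0.0751% and 0.0231% with paclobutrazol at 12 h and 3 h, 0.0694% with Brz220 at 10 µM for 3 h, 0.052% with uniconazole at 3 h and also with PNO8 at 12 h, 0.0347% with Brz220 at 3 µM and 0% with daminozide. Most of these treatments thus had few calls among any genes, and silver nitrate and TIBA had many. The absence of plastid calls with these 2 depends on the setting: with both 3 h mocks as the control, 3 plastid genes were called higher with silver nitrate and 1 lower with TIBA, and quantile normalization gave 2 calls with silver nitrate. The shares of all probe sets called under these settings were not computed, so whether plastid calls stayed scarce beside them was not tested. With silver nitrate, rpoA had the lowest adjusted p of any plastid gene in these comparisons, 0.0527: it read 23166 and 15286 against 12772 and 6984 in the mock. With TIBA the lowest was that of psbJ, 0.12. At an unadjusted p under 0.05, between 0 and 8 plastid genes were lower and between 0 and 4 higher. The most were 8 lower genes each with propiconazole at 3 h, where 4.96% of all probe sets were lower by that measure, and with MG132, where 6.28% were. Their medians, -0.15 and -0.15, were the lowest after that of CHX.

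**Figure D3:**
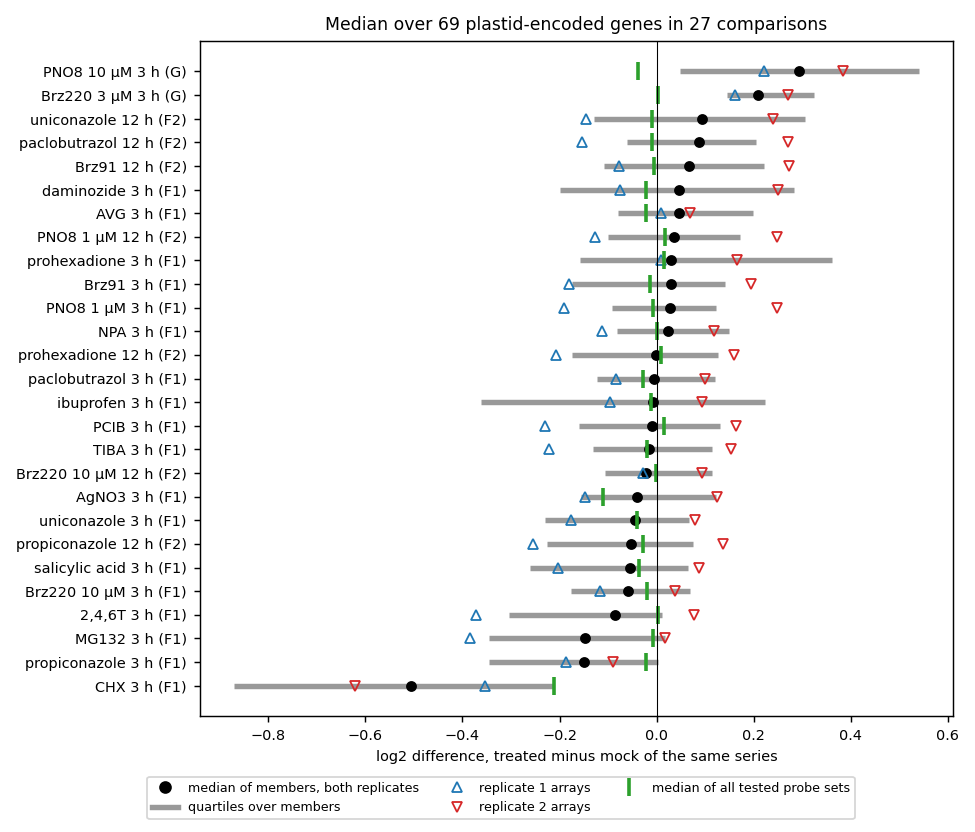
Median log2 difference of the 69 plastid genes from the mock of the same series (black points, grey bars from the lower to the upper quartile over genes) in 27 comparisons, with the medians of the first and second arrays as open triangles and the median of all tested probe sets as a green mark. CHX lies lowest at -0.51 and the 2 treatments of series G highest at 0.29 and 0.21, and in these 3 and in propiconazole at 3 h, AVG and prohexadione at 3 h both triangles lie on the same side of 0. In the other 21 comparisons the first arrays' median is below 0 and the second arrays' above it. These are not separate observations, since all comparisons of a series subtract the same 2 mock arrays. The first mock array had the higher median centred signal, 0.11 against -0.02 in F1 and 0.06 against -0.11 in F2.

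Propiconazole, uniconazole and paclobutrazol share a triazole ring and differ in the rest of the molecule. They were compared with each other at 10 µM and the same times, a comparison added after the data had been seen. Over 6 pairs, 0 plastid genes differed (the lowest p adjusted over all probe sets and pairs was 1.00), where at most 0.00578% of all probe sets did. At an unadjusted p under 0.05 the most were 8 genes higher with paclobutrazol than with propiconazole at 3 h, against 2.93% of all probe sets. The median difference of that pair was 0.20 and that of the others ran from -0.01 to 0.16. The 95% interval of a single gene reached a median of 0.55 to either side, so smaller differences could not be seen. For rbcL, paclobutrazol minus propiconazole at 3 h was 0.56, with an interval from 0.04 to 1.08.

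Responses at 12 h and 3 h were compared for 7 compounds, and 0 plastid genes differed in limma's test of the difference (between 0 and 2 at an unadjusted p under 0.05). Of all probe sets, 0.468% differed for PNO8, 0.0289% for propiconazole, 0.0116% for uniconazole, 0.00578% for each of Brz220 and Brz91, and 0% for paclobutrazol and prohexadione. The 2 comparisons of doses also crossed the series, since the doses lay in F1 and G. For PNO8, 10 µM minus 1 µM gave a median of 0.27 over plastid genes and 0 calls (2.18% of all probe sets). At an unadjusted p under 0.05, 8 were higher (6.62% of all) and 1 lower (5.91%). rpl20 was nearest, at 1.14 ± 0.34 (limma adjusted p = 0.07), and psaB stood at -2.08 ± 0.88 (limma adjusted p = 0.281). At 1 µM, psaB, rpoC1, rps3 and rps15 had differences of 0.06, -0.04, 0.04 and 0.11. For Brz220, 10 µM minus 3 µM gave a median of -0.26 and 0 calls (0% of all probe sets), with 4 lower at an unadjusted p under 0.05 (2.3% of all).

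The 2 mocks of 3 h differed in plastid genes. In the G mock, 4 of 69 were lower than in the F1 mock and 0 higher, where 1.84% of all probe sets were called lower and 3.23% higher. psbA read 11910 and 10356 in G against 26027 and 24060 in F1 (difference -1.16 ± 0.29, limma adjusted p = 0.0138). rbcL read 3549 and 2787 against 7116 and 6230 (difference -1.05 ± 0.26, limma adjusted p = 0.012). petD read 581 and 516 against 1978 and 1151 (difference -1.28 ± 0.30, limma adjusted p = 0.00852). rps14 read 82.4 and 37.7 against 338 and 331 (difference -1.32 ± 0.29, limma adjusted p = 0.00463). Both G mock signals of rps14 lay under the 20th percentile of their arrays, 141 and 123, so the size of that difference, and of those against the same arrays, is set largely by the pseudocount. In all 4 the groups lay clear of each other. Without the second G mock array, rps14 was not called, while leaving out any other of the 4 arrays kept its call. The calls of rbcL and petD were lost in 3 of the 4 leave-outs and that of psbA in all 4. Of the 8 measured nuclear genes for plastid RNA processing, OTP84 and LPA66 are named for their rank between these mocks. They were also lower in the G mock, by 0.91 and 0.80. The rest of that list is not given here, so nothing is drawn about the list.

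Other genes stood higher in series G whatever the treatment. All 6 G arrays lay above all 54 arrays of F1 and F2 in 5 of 69, atpI, accD, petL, rps19 and rpl32, as they did in 1.16% of all probe sets. For petL they ran from 22755 to 30759, against 6952 to 21059 in F1 and 8543 to 18181 in F2, and for rpl32 from 19544 to 25076, against 7431 to 17708 and 6997 to 11552. Between the mocks alone, none of these 5 passed the test, and rpl32 was nearest, at 0.71 ± 0.25 (limma adjusted p = 0.0975). What F1 and G stand for, beyond which mock belongs to which treatment, the labels do not say, so a change of series and of anything that went with it cannot be told apart.

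**Figure D4:**
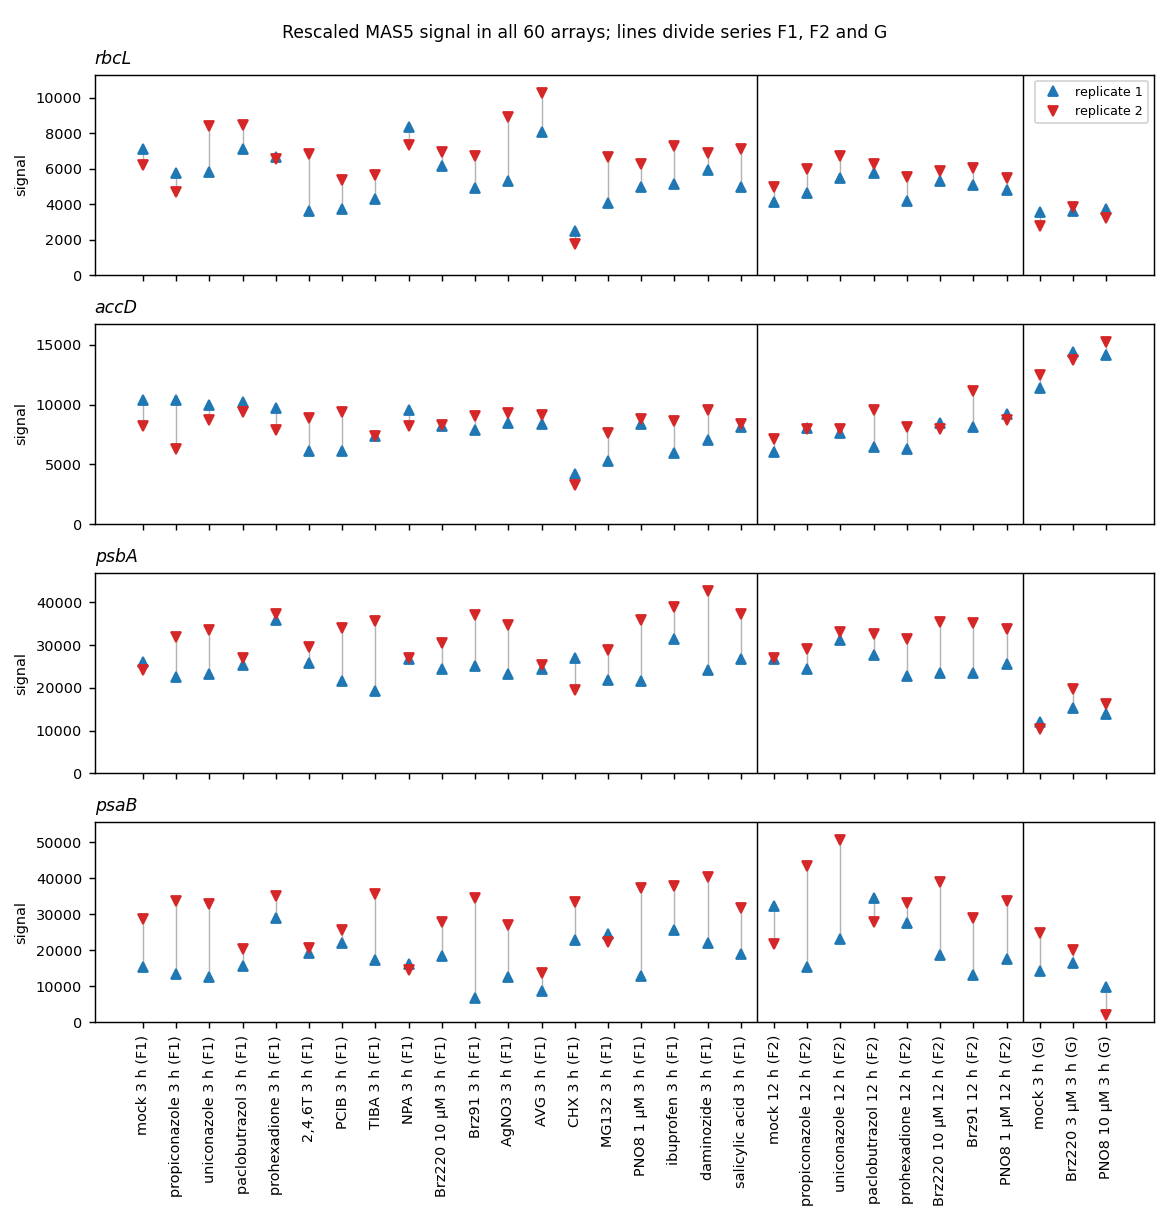
Rescaled signal of rbcL, accD, psbA and psaB on all 60 arrays, with a triangle for each array and vertical lines between series F1, F2 and G. The CHX arrays of rbcL (2474 and 1774) and accD (4180 and 3273) lie lowest, psbA is lowest in the G mock, and in psaB the second array lies above the first in 25 of 30 groups.

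Replicate arrays agreed less well for plastid genes than for most others. The median residual SD was 0.29 for the 69 genes and 0.23 for all probe sets tested, and 55 of 69 lay above the latter. It ran from 0.12 (rpl16) to 0.71 (psaB). The signal of psaB ran from 2084 through a median of 22677 to 50617, and the second array read higher in 25 of 30 groups, with a median ratio of 1.62. In atpB the second array read higher in 24 groups and in psbM in 25, while in ycf3, an assembly factor of photosystem I, it read lower in 30 of 30, with a median ratio of 0.56. The members that varied most within their complex over all 60 arrays were psaB, ycf3, ndhE, atpB, psbN, petG, rpoA, rps15, rbcL and rpl20, with SDs of log2 signal from 0.74 down to 0.42. For psaB, ycf3 and atpB the residual SD within groups, 0.71, 0.68 and 0.63, was about as large, and for rbcL (0.28 against 0.45) and rps15 (0.23 against 0.45) it was smaller.

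Plastid genes followed each other in part, and whether they moved as a block was not tested. With CHX, 58 of 69 had a negative difference. A positive one was found in 56 with PNO8 at 10 µM and in 66 with Brz220 at 3 µM. Over the 60 arrays, the correlation between 2 plastid genes had a median of 0.29, with quartiles of -0.03 and 0.53 over 2346 pairs that share arrays and scaling. Over the 27 comparisons of a treatment with its mock, 35 genes were never called, 31 once and 3 (rpoC1, psbB and rps15) in 2 of them. Of all probe sets, 37.8% were never called, 34.7% once and 27.5% in 2 or more. The second calls of these 3 were lost without single arrays, as given above. The genes outside the plastid genome whose group means followed the median plastid gene most closely were AT2G15960, AT2G21560 and MAC3B, with Pearson correlations over 30 group means of 0.88, 0.86 and 0.86. Without the CHX group they were 0.80, 0.78 and 0.73, and many groups share a mock, a series and its scaling.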

How the data were processed

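The authors deposited 1 intensity per probe set and array, linear and not logged, from MAS5 per the submitters' processing notes, which name no version. The deposited intensities had 1 common 2% trimmed mean within each replicate number of a series and different ones between these sets (1020 to 1523). Every array was therefore rescaled to 1316, the geometric mean. The 64 control probe sets were left out. Tests used log2(signal + 126), where 126 is the typical 20th percentile of an array; this understates changes of dim probe sets. A probe set was kept if 2 or more arrays had it over their 40th percentile. A model with a mean for each group over the 60 arrays was fitted by limma 3.58.1 (R 4.3.3), with 30 residual degrees of freedom, a variance trend and Benjamini-Hochberg adjustment within each comparison. The script was tested on simulated data. With 2 arrays a group, precision is limited.

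Genes were named through the platform annotation and the TAIR10.1 gene table, which also gave the gene order. Mitochondrial genes were taken by symbol, since their identifiers were not matched. Another 8 probe sets that name both copies of an inverted-repeat plastid gene are no members. The members and lists were chosen with earlier results of these data known. Genes are named by rule: the members called in a comparison (up to 5 each way), the most variable and the most often called, all polymerase genes and rbcL, 2 genes a list, and the 3 most similar genes; others named in the text were chosen after their values were seen.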

Additional observations from a re-analysis of the deposited data

How the results depend on the processing

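No called gene changed direction under any alternative tried. By the correlation of deviations, which had to exceed 0.1 in every pair, the replicate numbers were not taken to pair the samples (same-numbered arrays correlated between -0.11 and 0.29 in F1, -0.06 and 0.27 in F2, -0.01 and 0.02 in G), although single genes such as ycf3 followed the number in all groups and the block lowered the median residual SD from 0.23 to 0.21. With a replicate block, called plastid genes numbered 37 with CHX, 7 with PNO8 at 10 µM, 2 with salicylic acid, and 1 each with TIBA and silver nitrate. Without rescaling they were 16 with CHX, 1 with PNO8 at 10 µM, 0 with uniconazole at 12 h, 0 with salicylic acid and 1 between the mocks. Quantile normalization gave 2 with silver nitrate and 1 for the PNO8 dose difference, as did (1) a pseudocount 4 times as large. Without the filter, uniconazole at 12 h and salicylic acid had 0. With each series fitted alone, PNO8 at 10 µM had 31, silver nitrate 1 and uniconazole at 12 h 0. With both 3 h mocks as the control, CHX had 44 (42 lower and 2 higher), PNO8 at 10 µM 16, salicylic acid 5, ibuprofen 4, silver nitrate, AVG and MG132 3 each, daminozide 2, and propiconazole, prohexadione, 2,4,6T and TIBA at 3 h 1 each. Leaving out 1 array at a time gave 10 to 37 with CHX, 0 to 3 with salicylic acid, 0 to 2 with PNO8 at 10 µM, for its dose difference and between the mocks, 0 to 1 with 2,4,6T, TIBA, silver nitrate, MG132 and ibuprofen, and 0 to 0 with uniconazole at 12 h. A lone array is assumed to vary like the other groups. Except for the replicate block and the CHX leave-outs, the share of all probe sets called was not computed. That of the replicate block is not given here. Of these counts, only those of the CHX leave-outs thus have a background, given above. Nothing particular to plastid genes is drawn from the others.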

Other observations

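The 8 probe sets that name both copies of an inverted-repeat plastid gene are outside the 69. With CHX their median difference was -0.37, against -0.21 over all probe sets. Of the 8, 4 were called lower, as were 33.6% of all probe sets. With PNO8 at 10 µM their median was 0.15, against -0.04 over all probe sets. None of the 8 was called, where 6.25% of all probe sets were called higher and 5.99% lower. In the G mock 1 of 8 was lower than in the F1 mock, where 1.84% of all probe sets were.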
